A study of Mus musculus with 8 samples.

Results

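Stromal chemokines and their receptors were followed in RNA-Seq of mouse dental pulp (DP), in which *Tgfbr2* was deleted from the mesenchyme. The group is a list of 8 gene symbols, matched by name and drawn up with earlier results of these data known. It holds the ligands *Cxcl12*, *Cxcl14*, *Cxcl16*, *Cxcl1*, *Ccl2* and *Ccl7* and the receptors *Cxcr4* and *Ackr3*. Of these 8 genes, 6 are among the 12148 genes of the deposited table and are described here. *Cxcr4* and *Cxcl1* were not analysed here, so the signalling receptor for *Cxcl12* has no value below.

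Chemokines are small secreted proteins that bind heparan sulfate on cell surfaces and guide migrating cells through G protein-coupled receptors. Stromal cells use them to hold or recruit leukocytes and progenitors, and macrophages and endothelial cells make and answer many of them as well. In dental pulp, CXCL12 is known as a signal that attracts stem cells and growing vessels, and CCL2 and CCL7 are classical monocyte attractants that act through the receptor CCR2. Atypical receptors such as ACKR3 take up chemokines without classical G protein signalling and so clear or shape their gradients.

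The study asked how loss of *Tgfbr2*, a receptor subunit for TGF-β, alters signals made by pulp cells in developing teeth. Both groups were C57BL/6J mice at postnatal day 7 (P7), and both carried a Cre recombinase driven by the Osterix promoter, with activity in odontoblasts and pulp mesenchyme. Osterix-Cre mice (n = 4 libraries) had no floxed gene named in their labels, whereas *Tgfbr2cko* mice (n = 4 libraries) lost *Tgfbr2* where Cre had been active. Pulp of the left and right first molars was combined, freed of mineral and enamel organ, and amplified from a low RNA input. The labels do not say that each library is a separate animal, so p-values measure only the spread between these libraries. The titles also carry a number that libraries 49 and 50 share, as do libraries 54 and 55 and libraries 53 and 56. Control library 51 carries the same number as mutant libraries 54 and 55. The meaning of the number is not given, and if it marks a litter or animal within each genotype, the 8 libraries are not independent and 3 controls face 2 mutants. Were it a litter across genotypes, library 51 would share its litter with libraries 54 and 55. Libraries 49 to 52 are Osterix-Cre and libraries 53 to 56 are *Tgfbr2cko*, by the numbers in their titles. Values are log2 CPM, which are counts scaled to a common library total with 0.5 added to each count.

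Between 8682872 and 13539670 counted reads per library fell on these genes, so 1 read was worth 0.0739 to 0.115 CPM. *Tgfbr2* itself was 7.16, 7.62, 7.64 and 7.52 log2 CPM in the Osterix-Cre libraries and 7.02, 7.00, 7.16 and 7.61 in the *Tgfbr2cko* libraries. The library labelled *Tgfbr2cko* 56 thus lay within the control range for the deleted gene. Libraries 53 and 54 lay below all controls, and library 55 was level with the lowest control. The *Tgfbr2* difference between genotypes was -0.29 on the log2 scale (SE 0.17, adjusted p = 0.790 by limma-trend), and the groups overlapped. These counts cover the whole gene in all cells of the pulp, so loss of the floxed part in each library was not tested. Library 56 also gave 18.5% of its reads to the enamel matrix genes *Amelx* and *Ambn*, against 0.326% to 2.74% in the other 7. For the members and the genes of the pathway lists below, values without library 56 are given where leaving it out ended a call or moved a called value by over 1.5 times. For cell type markers outside those lists this was not checked.

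Per kilobase of exon, *Cxcl14* and *Cxcl12* were the highest members in the control pulp and *Ccl2* was the lowest. *Cxcl14* reached 53.2 ± 6.55 CPM per kb (SD, n = 4) in Osterix-Cre libraries, higher than 91.7% of genes, and *Cxcl12* 38.6 ± 10.1 CPM per kb. Their ranges overlapped, since *Cxcl14* ran from 44.5 to 60.2 CPM per kb and *Cxcl12* from 24.8 to 48.5. *Ackr3*, at 13.2 ± 1.48 CPM per kb, stood below the *Cxcl12* range and above the remaining members. *Ccl7*, at 7.49 ± 1.57 CPM per kb, and *Cxcl16*, at 5.77 ± 0.83, overlapped in their ranges. *Ccl2* was at 2.52 ± 0.76 CPM per kb, and its highest control library, at 3.60, was below the lowest of *Cxcl16*, at 4.95. Exon length here is the union of all annotated exons, which for *Cxcl12* comes to 8176 bases and includes alternative ends, so its level per kilobase depends on that annotation.

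The members did not move together. *Ccl2* and *Ccl7* were lower in *Tgfbr2cko* pulp in all libraries. *Cxcl12* was lower in some mutant libraries, but like *Cxcl14*, *Cxcl16* and *Ackr3* it did not pass the test. In the call rule used throughout, limma-trend had to give p under 0.05 before adjustment, and the levels had to differ 1.5-fold or more. By that rule 2 of the 6 members were lower and 0 were higher, and the median of the 6 log2 fold changes was -0.33. The same rule called 5.77% of all 12148 genes, 3.65% as lower and 2.12% as higher, and the median over all genes was -0.0053. The genotypes did not overlap in 2 of the 6 members and in 5.27% of all genes.

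**Figure D1:**
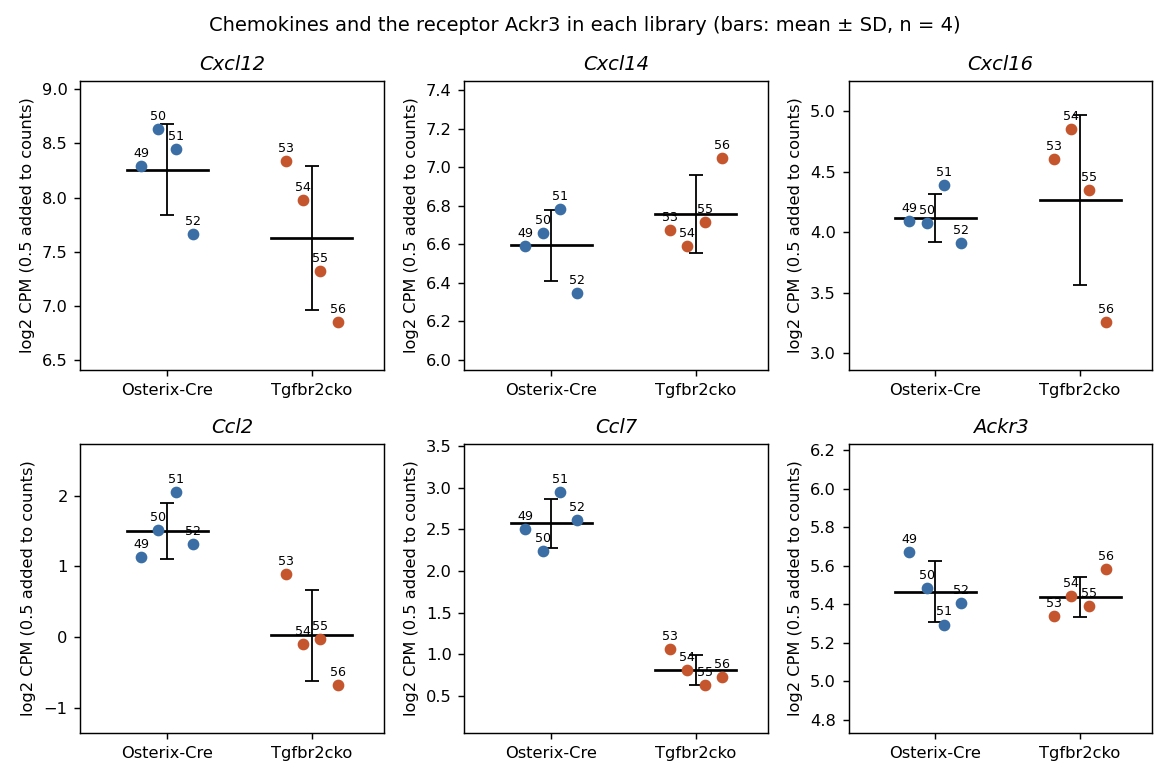
Level of each measured member (y axis, log2 CPM) in the 4 Osterix-Cre and 4 *Tgfbr2cko* libraries, with library numbers beside the points and mean ± SD as bars. *Ccl2* and *Ccl7* are the panels in which the genotypes do not overlap, and *Cxcl12* falls from 8.34 in library 53 to 6.85 in library 56.

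*Cxcl12* encodes the ligand of CXCR4 and ACKR3 and lies on chromosome 6 (chr6:117168535-117181367, plus strand, GRCm38). It had 8.29, 8.63, 8.45 and 7.66 log2 CPM in the Osterix-Cre libraries and 8.34, 7.98, 7.32 and 6.85 in the *Tgfbr2cko* libraries. Libraries 55 and 56 were below every control, library 53 was within the upper control range, and control library 52 was itself low, so the groups overlapped. The means were 8.26 ± 0.42 and 7.62 ± 0.66 (SD, n = 4 each). The difference was -0.63 on the log2 scale (SE 0.29, 95% interval -1.27 to 0.00), with an adjusted p = 0.596 by limma-trend with Benjamini-Hochberg adjustment over 12148 genes. The limma-trend p before adjustment was 0.0503, and an exact permutation test (two-sided, 70 arrangements of 4 against 4) gave p = 0.200, where the smallest p it can give is 0.0286. The gene had 1390 to 3826 reads per library. Without library 56 the difference was -0.38, and without library 53 it was -0.87 (adjusted p = 0.158 by limma-trend), past the threshold before adjustment. Under library weights, quantile normalization and median centring the difference stayed between -0.63 and -0.60 and passed 0.05 before adjustment, with adjusted p = 0.285, adjusted p = 0.442 and adjusted p = 0.417 by limma-trend.

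*Ackr3* encodes the atypical receptor that removes CXCL12, and lies at chr1:90203980-90216751 on the plus strand. Its values were 5.67, 5.49, 5.30 and 5.41 log2 CPM in the Osterix-Cre libraries and 5.34, 5.44, 5.39 and 5.58 in the *Tgfbr2cko* libraries. Each mutant value fell inside the control range. The difference was -0.03 (SE 0.15, 95% interval -0.34 to 0.29, exact permutation p = 0.800), and leaving out 1 library moved it between -0.08 and 0.04. The interval leaves room for changes of up to about 0.3 log2 units in either direction.

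The ligand and its receptor were also compared inside each library, a difference that total-count scaling cannot change. *Cxcl12* exceeded *Ackr3* by 2.62, 3.15, 3.15 and 2.26 log2 units in the Osterix-Cre libraries and by 3.0, 2.54, 1.93 and 1.27 in the *Tgfbr2cko* libraries. Read for read that is 4.78 to 8.89 *Cxcl12* reads per *Ackr3* read in controls and 2.41 to 8.0 in mutants. The group means, 2.79 ± 0.44 and 2.19 ± 0.75 (SD, n = 4 each), differed by -0.61, and the ranges overlapped. Leaving out 1 library moved this difference between -0.88 and -0.30. It is given as a description with no test.

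*Cxcl14* encodes a chemokine made widely by epithelia and stroma, and lies at chr13:56288643-56296551 on the minus strand. It had 6.59, 6.66, 6.78 and 6.35 log2 CPM in Osterix-Cre and 6.67, 6.59, 6.72 and 7.05 in *Tgfbr2cko* libraries. Library 56 was the single mutant above all controls. The difference was 0.16 (SE 0.15, 95% interval -0.17 to 0.49, exact permutation p = 0.343), and 0.065 without library 56.

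*Cxcl16* encodes a transmembrane chemokine that also acts as a scavenger receptor on macrophages, and lies at chr11:70453983-70459984 on the minus strand. Its values were 4.09, 4.07, 4.39 and 3.91 log2 CPM in the Osterix-Cre libraries and 4.61, 4.85, 4.35 and 3.26 in the *Tgfbr2cko* libraries. Libraries 53 and 54 stood above the controls and library 56 below them, which gave mutants an SD of 0.70 against 0.20 in controls. The difference was 0.15 (SE 0.29, 95% interval -0.49 to 0.78, exact permutation p = 0.743). Without library 56 it was 0.49 (adjusted p = 0.395 by limma-trend, under 0.05 before adjustment), and without library 54 it was -0.05. Of the *Cxcl16* exon bases, 552 (18.3%) are shared with exons of *Zmynd15* on the opposite strand. The strand setting of the counting is not given in the sources used here, and without strand the reads of the pair cannot be told apart there. *Zmynd15* had 13 to 28 reads per library, against 129 to 354 for *Cxcl16*.

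*Ccl7* encodes a monocyte attractant and lies at chr11:82045712-82047525 on the plus strand. It fell in *Tgfbr2cko* pulp with the smallest adjusted p of the members. Its values were 2.50, 2.24, 2.95 and 2.61 log2 CPM in the Osterix-Cre libraries and 1.06, 0.81, 0.64 and 0.73 in the *Tgfbr2cko* libraries. The highest mutant stood more than 1 log2 unit below the lowest control, and each genotype was tight, with SDs of 0.30 and 0.18. In reads, that is 55, 45, 73 and 62 against 18, 21, 13 and 22. The level was 3.40-fold lower in mutants (log2 fold change -1.77, SE 0.28, 95% interval -2.38 to -1.16), with an adjusted p of 0.00853 by limma-trend. The exact permutation p was 0.0286, the smallest it can give. Among all genes, 0.947% passed an adjusted p under 0.05 and 0.7% did so as lower, while 3.14% had all mutants below all controls. Leaving out any 1 library kept the adjusted p between 0.00838 and 0.0493 by limma-trend.

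*Ccl2*, the best known monocyte attractant, lies next to it at chr11:82035571-82037453 on the same strand, with 8258 bases between the genes. Its values were 1.13, 1.51, 2.05 and 1.32 log2 CPM in the Osterix-Cre libraries and 0.89, -0.09, -0.03 and -0.67 in the *Tgfbr2cko* libraries. The groups did not overlap, but library 53, at 0.89, came within 0.24 of control library 49. The level was 2.79-fold lower in mutants (log2 fold change -1.48, SE 0.41, 95% interval -2.36 to -0.60), with an adjusted p = 0.140 by limma-trend and an exact permutation p of 0.0286. These values rest on 21 to 39 reads in controls and 8 to 16 in mutants. A count of 8 reads has an exact 95% Poisson interval of 3.45 to 15.8, which covers counting error only, since amplified reads are not independent molecules. The gene body overlaps *Gm17268* on the other strand, with 0 shared exon bases.

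The pair stands in a cluster of monocyte chemokine genes, which reaches over 67830 bases to *Ccl12* (chr11:82101845-82103400, plus strand), another attractant of the same type in mouse. The genes are related in sequence, so it matters whether reads of one could be counted for another. Exon 2 of each of the 3 coding sequences is given here over its last 112 bases, from GENCODE M21 on GRCm38, with the bases that all 3 genes share in capitals. They lie at chr11:82036489-82036600 for *Ccl2*, chr11:82046518-82046629 for *Ccl7*, whose whole exon 2 this is, and chr11:82102617-82102728 for *Ccl12*.
Ccl2: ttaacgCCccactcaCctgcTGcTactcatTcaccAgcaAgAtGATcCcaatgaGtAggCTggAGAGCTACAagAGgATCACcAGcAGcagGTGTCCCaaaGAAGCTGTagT
Ccl7: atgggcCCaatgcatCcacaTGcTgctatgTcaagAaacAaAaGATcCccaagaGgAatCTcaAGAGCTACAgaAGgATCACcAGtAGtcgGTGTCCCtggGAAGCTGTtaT
Ccl12: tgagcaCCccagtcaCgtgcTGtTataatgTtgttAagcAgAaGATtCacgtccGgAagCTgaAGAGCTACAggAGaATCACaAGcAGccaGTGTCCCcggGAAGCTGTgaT
In this stretch 54 of the 112 bases (48.2%) are the same in all 3 genes. Over the aligned coding sequences *Ccl2* and *Ccl7* were 69.1% identical, *Ccl2* and *Ccl12* 69.7%, and *Ccl7* and *Ccl12* 69.1%. The longest identical runs were 11, 17 and 11 bases, and 0 windows of 50 bases were shared by any pair.

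*Ccl12* fell alongside its neighbours. It had 4.92, 4.28, 4.39 and 5.41 log2 CPM in the Osterix-Cre libraries and 3.91, 3.21, 3.44 and 3.05 in the *Tgfbr2cko* libraries, with no overlap. The level was 2.54-fold lower in mutants (log2 fold change -1.34, SE 0.27, adjusted p = 0.0314 by limma-trend). With 1 library left out, the adjusted p of *Ccl12* ran from 0.0120 to 0.110 by limma-trend and was under 0.05 in 2 of 8 fits. It was 0.0596 with no intensity trend and 0.0707 with the enamel matrix mean as a covariate. Across the 8 libraries *Ccl2* and *Ccl7* had a Pearson r of 0.903, and 0.640 once each genotype's mean was taken away. For *Ccl7* and *Ccl12* r was 0.872 and then 0.275. These points share libraries and genotype, and the values are descriptions.

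The wider family was read from 2 lists of 35 further chemokines and 21 further chemokine receptors. Of the 35 chemokines, 8 were measured, and 4 were lower, 0 higher, with a median log2 fold change of -0.93. *Ccl6*, a macrophage chemokine of mouse, showed the largest fall of the measured family, from 3.04, 2.85, 2.19 and 2.79 log2 CPM to 0.98, 1.36, 0.13 and 0.53 (log2 fold change -1.97, SE 0.34, adjusted p = 0.0119 by limma-trend). *Pf4*, a platelet and macrophage chemokine, fell by 1.19 (SE 0.34, adjusted p = 0.159 by limma-trend, exact permutation p = 0.0571), and library 53 at 7.06 stayed inside the control range. *Cx3cl1*, the membrane-bound ligand that neurons and endothelium present to CX3CR1, fell by 1.28 (SE 0.40, adjusted p = 0.220 by limma-trend, exact permutation p = 0.0286), with library 56 lowest at 2.93 log2 CPM, and without that library the difference was -0.76. *Ccl9*, *Ccl25*, *Ccl27a* and *Mif* were not called, at log2 fold changes of -0.67, 0.20, 0.05 and 0.36.

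Of the 21 further receptors, 5 were measured, and they split in direction. *Ackr1*, a chemokine-binding receptor of venular endothelium, fell from 3.31, 2.99, 2.78 and 2.22 log2 CPM to 1.96, 1.65, 0.74 and 1.02 (log2 fold change -1.48, SE 0.34, adjusted p = 0.0660 by limma-trend, exact permutation p = 0.0286). *Ccrl2*, a non-signalling receptor that presents chemerin, fell by 0.95 (SE 0.34, adjusted p = 0.338 by limma-trend, exact permutation p = 0.0571), a call that was lost without library 55, at -0.72, and with the macrophage marker mean as a covariate, at -0.37. *Ackr4*, which scavenges CCL19, CCL21 and CCL25, was the one family gene called higher. It went from 3.85, 3.54, 4.31 and 4.43 log2 CPM to 4.57, 5.78, 5.64 and 4.93, with no overlap, against 2.13% of all genes with all mutants above all controls, a 2.29-fold increase (log2 fold change 1.19, SE 0.28, adjusted p = 0.0726 by limma-trend). *Ccr1*, a receptor for CCL7 and CCL6, differed by -0.40 (adjusted p = 0.637), and *Cx3cr1*, the CX3CL1 receptor of macrophages, by 0.26 (adjusted p = 0.946, both by limma-trend).

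**Figure D2:**
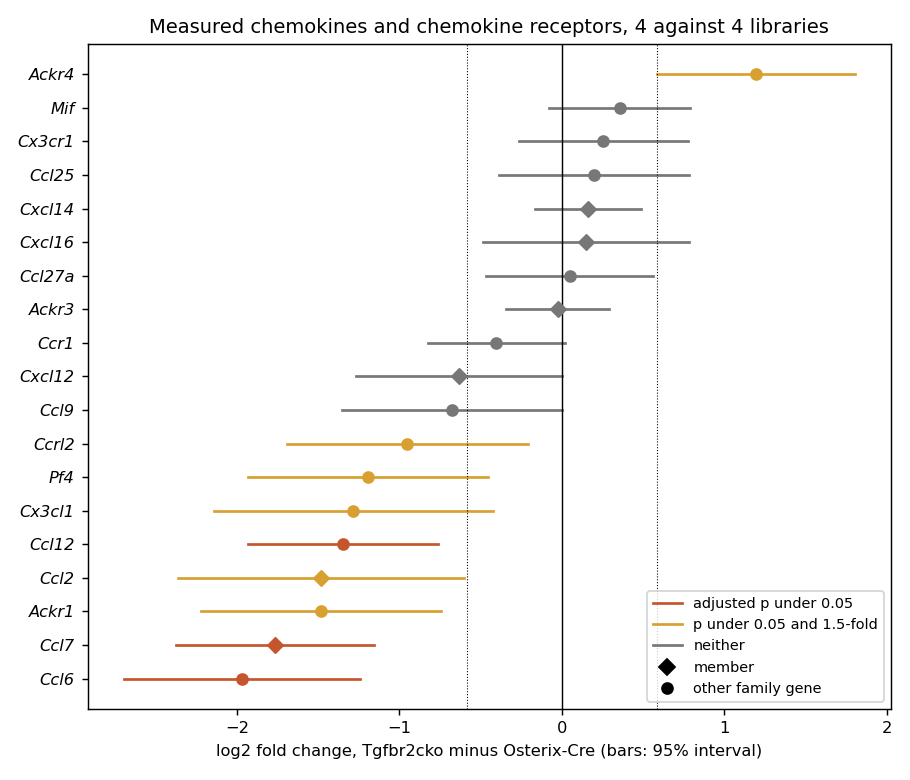
Log2 fold change (x axis, *Tgfbr2cko* minus Osterix-Cre) with its 95% interval for the 19 measured chemokines and chemokine receptors, with dotted lines at 1.5-fold. Of these 19, 8 were called lower and *Ackr4* alone was called higher, while *Ccl6*, *Ccl7* and *Ccl12* passed an adjusted p under 0.05.

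Genes that carry the chemokine signal were then counted in 4 further lists. Of 22 genes for chemokine processing and presentation on heparan sulfate, 21 were measured, and *Gpc3*, a cell-surface proteoglycan, was called at a log2 fold change of 0.72 (SE 0.24, adjusted p = 0.253 by limma-trend). That call was lost without library 56 (0.47), with library weights (0.50) and with the mean of the enamel matrix genes (0.53) or macrophage markers (0.40) as a covariate. Of 27 signalling genes downstream of the receptors, 23 were measured and 5 were lower. These were *Rgs4*, *Rgs5* and *Rgs18*, which switch off G protein signals, *Gng2*, a G protein subunit, and *Rac2*, a GTPase of blood cells, at log2 fold changes of -1.21, -0.83, -1.02, -0.73 and -1.0. *Rgs5*, also a pericyte marker, passed the adjusted threshold (adjusted p = 0.0212 by limma-trend), and with 1 library left out it did so in 4 of 8 fits (0.0091 to 0.0892). It did not pass with no intensity trend (adjusted p = 0.0596 by limma) or with the macrophage covariate (adjusted p = 0.134). With the macrophage marker mean as a covariate 1 of the 5 was still called, *Rgs5*, and *Rgs4*, *Rgs18*, *Gng2* and *Rac2* were at -0.71, -0.61, -0.51 and -0.47.

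Of 20 NF-κB and inflammatory response genes, 14 were measured, 1 was called higher and 1 lower. *Socs3*, a feedback inhibitor of cytokine signalling, had a log2 fold change of 0.62 (SE 0.25, adjusted p = 0.438 by limma-trend). Its call was lost without library 49 (0.57), 50 (0.58), 52 (0.56), 53 (0.56) or 54 (0.52), with library weights (0.58) and with title numbers averaged (0.58). *Vcam1*, an adhesion molecule for leukocytes, was 4.38, 4.88, 4.94 and 4.67 log2 CPM in Osterix-Cre and 2.99, 3.67, 3.68 and 3.18 in *Tgfbr2cko* libraries, a fall of 2.52-fold (adjusted p = 0.010 by limma-trend, and 0.0574 with the macrophage covariate). Of 15 stromal niche genes, 12 were measured and 3 were lower, which were *Vcam1*, *Pdgfrb* (log2 fold change -0.69, adjusted p = 0.282 by limma-trend) and *Cd248*. The *Pdgfrb* call was lost without library 56 (-0.48), without library 50 (-0.57) and with the enamel (-0.51) or macrophage (-0.21) mean as a covariate. *Cd248*, a glycoprotein of stromal cells and pericytes, went from 8.82, 8.74, 9.05 and 9.05 log2 CPM to 7.69, 7.44, 7.58 and 7.81 (log2 fold change -1.28, SE 0.15, adjusted p = 8.40e-04 by limma-trend). Over all 6 pathway lists 81 of 138 genes were measured, with 14 lower and 3 higher, and their median log2 fold change was -0.0038. The shares over all genes were 3.65% lower and 2.12% higher.

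Markers of other cell types moved with some of these values. All 15 macrophage markers were measured, none was at 0 in any library, and all 15 had a negative fold change, of which 6 were called lower (*Cd68*, *Fcer1g*, *Fcgr3*, *Lyz2*, *Mrc1* and *Ptprc*). Their summed level ran from 1696 to 2320 CPM in the Osterix-Cre and from 861 to 1962 CPM in the *Tgfbr2cko* libraries. *Cx3cr1*, a macrophage receptor outside this list, went the other way in most mutants. It was 6.43, 6.17, 6.47 and 5.80 log2 CPM in the Osterix-Cre and 6.94, 6.67, 6.58 and 5.71 in the *Tgfbr2cko* libraries. In bulk pulp, fewer cells of a type and less RNA per cell cannot be told apart. Of the 12 pulp mesenchyme markers 1 was lower, of 10 endothelial markers 2 were lower (*Cldn5* and *Tek*), and of the 7 measured pericyte and smooth muscle markers 1 was lower. Of the 5 markers of odontoblasts, in which Cre is active, *Nes* and *Bglap* were lower, and the median log2 fold change of the 5 was -0.71. Of 4 measured bone markers *Ibsp* was higher, at 1.24. *S100a8*, the 1 measured marker of 11 for lymphocytes and neutrophils, was lower at -1.75. Its groups overlapped at low levels, with 1.55 to 6.32 CPM in controls and 0.346 to 5.69 CPM in mutants. Of the 11 dental epithelium markers *Cdh1* was higher and *Klk4* lower, and 0 of 2 Schwann cell and 0 of 3 erythroid and muscle markers measured were called. Over all genes, 3.65% were called lower, 2.12% were called higher and 3.14% had all mutants below all controls, and single calls in short lists carry little weight. All 10 endothelial markers had a negative fold change, and 3 had all mutants below all controls. Their sum was 514 to 706 CPM in controls and 420 to 558 in mutants, while their mean log2 CPM did not overlap, at 5.50 to 6.01 and 5.12 to 5.49.

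*Cxcl12* followed the macrophage marker mean most closely of the members. The mean log2 CPM of the 15 markers was 6.60, 6.68, 6.75 and 6.26 in the Osterix-Cre and 6.52, 6.22, 5.93 and 5.33 in the *Tgfbr2cko* libraries. Over the 8 libraries its Pearson r with *Cxcl12* was 0.966 and Spearman's rho 0.929, it was 0.959 with the genotype means taken away, and 0.890 without the 2 libraries farthest from the median. With the mean of the 12 pulp mesenchyme markers r was 0.630 and rho 0.214, and with that of the 10 endothelial markers r was 0.382. With that of the 7 pericyte and smooth muscle markers r was 0.692 and rho 0.738. The mean of the enamel matrix genes gave *Cxcl12* an r of -0.809, and -0.779 with the genotype means taken away. With the macrophage marker mean as a covariate the *Cxcl12* difference turned to 0.15 (adjusted p = 0.708 by limma-trend). The name of the group calls these chemokines stromal, but these libraries do not tell which cells made the transcripts.

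*Ccl2* had an r of 0.883 with the macrophage marker mean over the 8 libraries, and *Ccl7* of 0.694. With the genotype means taken away these were 0.828 and 0.367. With the pericyte and smooth muscle mean *Ccl2* had 0.841 and *Ccl7* 0.701, and with the endothelial mean 0.691 and 0.712. With the genotype means taken away, the pericyte values were 0.628 and 0.014 and the endothelial ones 0.023 and -0.54. With the macrophage marker mean as a covariate the *Ccl2* difference was -0.83 (adjusted p = 0.433 by limma-trend), no longer past the threshold before adjustment, whereas that of *Ccl7* was -1.63 (adjusted p = 0.0579) and still past it. *Ccl6* and *Ccl12* differed by -1.74 (adjusted p = 0.0952) and -1.26 (adjusted p = 0.151) in that fit, so neither passed the adjusted threshold, and *Pf4* and *Cx3cl1* moved to -0.29 and -0.29 and both lost their calls. In library 53 the macrophage marker mean, *Cxcl12* and *Pf4* were inside the control range, while *Ccl7*, *Ccl2*, *Cx3cl1*, *Ccl6* and *Ccl12* were below all controls. The part of these cell types in the chemokine values was not tested.

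**Figure D3:**
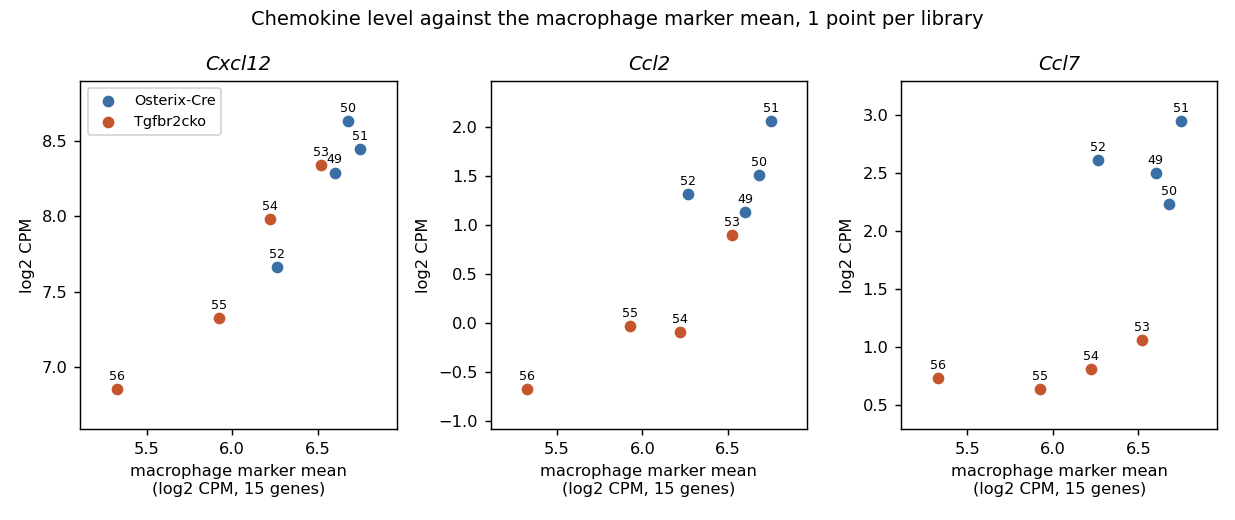
Level of *Cxcl12*, *Ccl2* and *Ccl7* (y axes, log2 CPM) against the mean log2 CPM of 15 macrophage markers (x axis), 1 point per library, n = 8. The *Cxcl12* points of both genotypes lie along one band (r = 0.966), while the 4 *Tgfbr2cko* points of *Ccl7* lie between 0.64 and 1.06 while the marker mean goes from 5.33 to 6.52.

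Enamel matrix genes, which mark the enamel organ that was dissected away, were highest in library 56. The mean log2 CPM of *Amelx*, *Ambn* and *Enam* was 12.08, 9.23, 9.65 and 10.21 in the Osterix-Cre and 9.99, 9.27, 12.58 and 15.28 in the *Tgfbr2cko* libraries. The Pearson r with that mean was -0.809 for *Cxcl12*, -0.729 for *Cxcl16*, -0.659 for *Ccl2* and -0.425 for *Ccl7*. For *Cxcl14* and *Ackr3* it was 0.632 and 0.552. With that mean as a covariate, *Cxcl12* differed by -0.33, *Ccl2* by -1.22 (adjusted p = 0.263) and *Ccl7* by -1.72 (adjusted p = 0.0169 by limma-trend). Without library 56, *Ccl7* and *Ccl2* remained lower at p under 0.05.

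**Figure D4:**
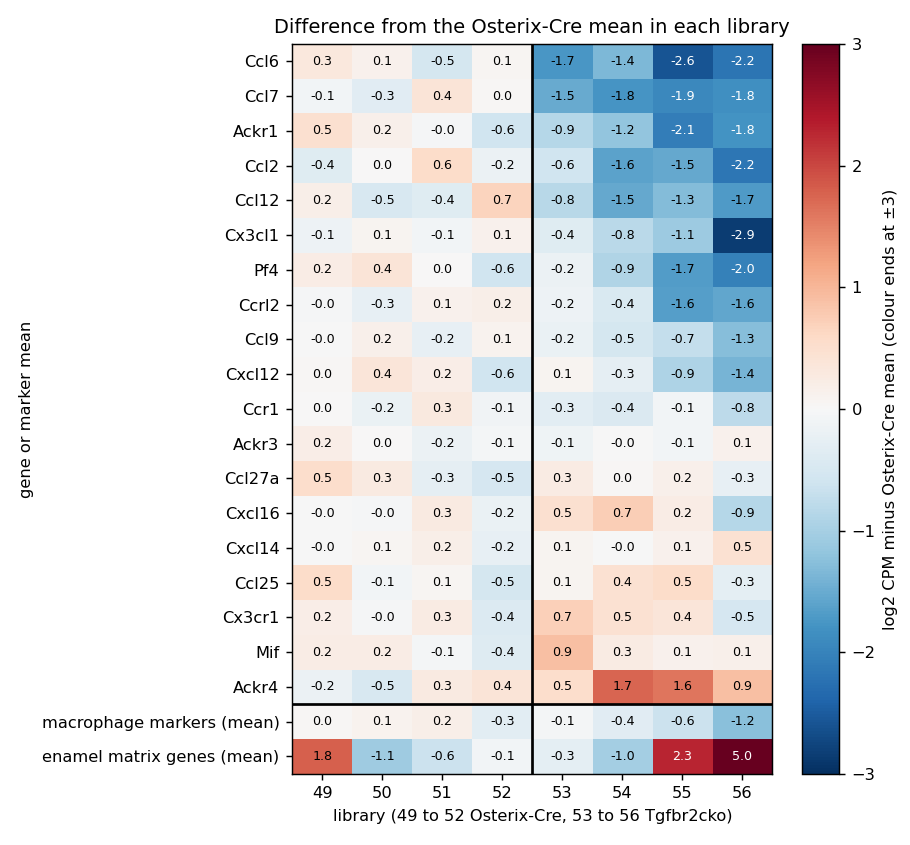
Difference of each library (columns) from the Osterix-Cre mean, in log2 CPM, for the 19 measured chemokines and receptors (rows), with the means of the macrophage markers and of *Amelx*, *Ambn* and *Enam* below the line. The 10 rows from *Ccl6* to *Ccr1* other than *Cxcl12* are below 0 in all 4 *Tgfbr2cko* libraries, and *Ackr4* and *Mif* are above 0 in all 4.

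For each member the 3 genes with the most similar pattern were taken by Pearson r of log2 CPM over the 8 libraries. *Cxcl12* was closest to *Pld4*, *Rnf5* and *Spi1* (r of 0.985, 0.984 and 0.984), and these stayed at or above 0.967 without library 56. *Ccl2* was closest to *Mrc1*, *Ppm1l* and *F13a1* (r of 0.980, 0.978 and 0.974). *Ccl7* was closest to *Ccdc80*, *Cd248* and *Afap1* (r of 0.983, 0.978 and 0.978), and with the genotype means taken away these fell to 0.663, 0.564 and 0.758.

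*Cxcl16* was closest to *Daam2*, *Sars* and *Prdx5* (r of 0.990, 0.982 and 0.978), *Cxcl14* to *Tmem30b*, *Cd3eap* and *Ctps* (r of 0.949, 0.948 and 0.948), and *Ackr3* to *Pex16*, *Rbl1* and *Bach1* (r of 0.902, 0.880 and 0.867). These are the top of 12148 genes over 8 points that share genotype and depth, and they are descriptions only.

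The processing moved the members unequally. Each of the other scalings, weights and left-out libraries kept *Ccl2* and *Ccl7* below 0, and the covariates moved *Cxcl12* and *Cxcl16* most.

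**Figure D5:**
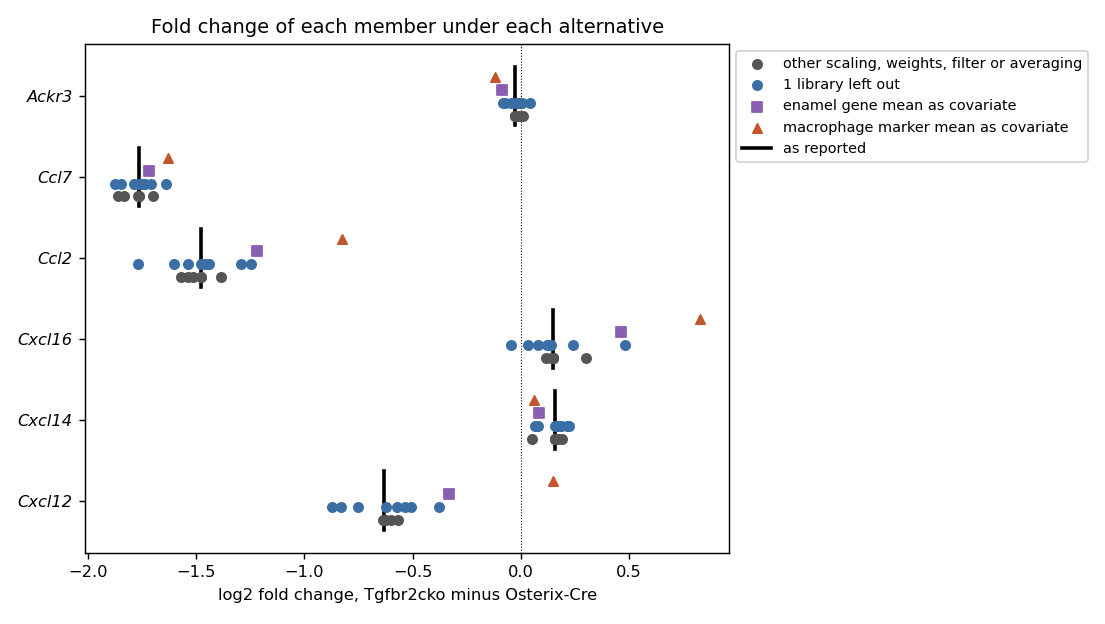
Log2 fold change (x axis, *Tgfbr2cko* minus Osterix-Cre) of the 6 members as reported (black bar) and under each alternative. *Ccl7* stays between -1.88 and -1.63, whereas *Cxcl12* runs from -0.87 to 0.15 and *Cxcl16* from -0.05 to 0.83.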

How the data were processed

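RNA-Seq was analysed from 8 dental pulp libraries, 4 Osterix-Cre and 4 *Tgfbr2cko*. The submitters' processing notes name fastp 0.21.0, HISAT2 2.1.0, featureCounts of Subread 2.0.1 and the genome build GRCm38.p5, with GENCODE M14 in the methods. The authors kept genes that the CLEAR workflow lists as quantifiable and applied voom, so the deposited values are log2 CPM with 0.5 added to each count. All 97184 values returned whole reads, with a largest distance of 3.61e-08. The log2 values were fitted as deposited in limma 3.58.1 (R 4.3.3), with an intensity trend, no covariate and Benjamini-Hochberg adjustment over 12148 genes, a script tested on simulated data. An exact permutation test, two-sided, was added for single genes. Positions and exon lengths are from GENCODE M21, matched for 12144 identifiers. The members and gene lists were chosen with earlier results of these data known. Named genes are the measured members, the pathway list genes past p under 0.05 and 1.5-fold, and the 3 genes most like each member. Uncalled family genes, *Zmynd15* and the markers named were added after their values were seen. The alternatives are no trend, library weights, voom weights, 2 scalings, a filter at a mean log2 CPM of 3, averaging by title number, 2 covariates and leaving out each library.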

Additional observations from a re-analysis of the deposited data

Results flagged for a closer look

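In the Osterix-Cre group, *Socs3* had 1 library far from the other 3, as library 51 stood at 2.99 log2 CPM against 2.36 to 2.42 in the others. This passed Dixon's criterion, which was applied to 46 groups of 4 libraries and by chance picks out about 1 group in 20.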

How the results depend on the processing

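The direction of *Ccl2* and *Ccl7* was kept under each alternative run. With 1 library left out, *Ccl2* ran from -1.77 to -1.25 and *Ccl7* from -1.88 to -1.64, *Cxcl12* from -0.87 to -0.38 (p under 0.05 in 3 of 8 fits), *Cxcl14* from 0.06 to 0.22, *Cxcl16* from -0.046 to 0.49 and *Ackr3* from -0.081 to 0.044. *Ackr3* turned sign without library 49 (0.044), without library 53 (0.0081) and with libraries of 1 title number averaged (0.013), and *Cxcl16* without library 54 (-0.046). *Cxcl12* met the call rule with library weights (-0.63), quantile normalization (-0.60) and median centring (-0.63), and with title numbers averaged (-0.57) it passed 0.05 at less than 1.5-fold. With the macrophage marker mean as a covariate, *Cxcl12* turned to 0.15, *Cxcl16* rose to 0.83 (adjusted p = 0.168 by limma-trend, past the threshold before adjustment) and *Ccl2* shrank in size to -0.83. The 2 members called were then *Ccl7* and *Cxcl16*. At a mean of at least 3 log2 CPM, *Ccl2* and *Ccl7* were not in the fit and 0 members were called, and at an adjusted p under 0.05 the count was 1. Over the 6 pathway lists 17 genes were called, 11 with the macrophage covariate, 5 at an adjusted p and 15 to 20 with 1 library left out. Of 284 alternative values for the 17 pathway genes, 261 kept direction and call, 23 lost the call and 0 reversed. Outside the left-out libraries, adjusted p by limma-trend ran from 0.285 to 0.728 for *Cxcl12*, from 0.0394 to 0.433 for *Ccl2* and from 0.00181 to 0.0579 for *Ccl7*. With title numbers averaged, *Ccl7* was at -1.83 (adjusted p = 0.0175 by limma-trend) and *Ccl2* at -1.54. The causes were not tested. No paired analysis was possible because the genotypes share no library number and only 1 title number, which is 2, so a block on it would set library 51 against libraries 54 and 55 alone and was not run. With 8 to 39 reads, *Ccl2* is the member that depth limits most.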
